A study of Mus musculus with 6 samples.

Results

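The 45 genes described here encode structural and assembly proteins of the sarcomere, the contractile unit of striated muscle. They were listed by name for their place in the sarcomere, without the myosin heavy chains and without any troponin. The rule used no measured value, but the list was drawn up with earlier results of these data known. All 45 were found among the 53726 features of an RNA-seq table of mouse Achilles tendon, and 44 of them, all but Myoz3, passed the minimum mean normalised count of 50 in each comparison. The tendons came from 4-week-old mice of 3 genotypes with 1 library, from 1 mouse, for each. Control mice were Dicer f/f, with both Dicer1 alleles floxed and no Cre. ScxHt mice were ScxCre/+ Knock In with Dicer +/+. Dicer cKO mice were ScxCre/+ Knock In with Dicer f/f. DICER cuts precursor hairpins into mature microRNAs. The Cre is expressed from the Scx locus, whose activity is mainly in tendon and ligament cells, and the knock-in takes the place of 1 Scx copy in both ScxHt and Dicer cKO mice. The Dicer cKO against ScxHt comparison therefore holds the Cre allele constant, while the Dicer cKO against Control comparison does not. The RNA was from whole tendon.

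In a sarcomere, thin filaments of actin, tropomyosin and nebulin slide past thick filaments of myosin. Thin filaments are anchored at the Z-disc by alpha-actinin, thick filaments are tied together at the M-band by myomesins, and titin spans from Z-disc to M-band. Fast and slow muscle fibres use different genes for several of these parts. Tendon fibroblasts build no sarcomeres, and the fibres of the calf muscles end at the muscle-tendon junction, next to the tissue sampled here.

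The libraries held between 14936241 and 16218733 counts assigned to features. Counts for Dicer1, taken over the whole gene, were 1919 in Control, 2025 in ScxHt and 1621 in Dicer cKO, and the ratio of Dicer cKO to Control was 0.877 (95% counting interval 0.821 to 0.938). The labelled tissue was checked with 12 tendon fibroblast markers, including Scx, Tnmd, Fmod and Col1a1. All 12 were detected, and they took 13.5% of the counts in Control, 11.8% in ScxHt and 7.82% in Dicer cKO. Most of these counts were of Col1a1 and Col1a2, with 1261322 and 708695 of 2187748 in Control. Ratios below are of counts divided by DESeq2 size factors, and their intervals are exact 95% intervals that cover counting error only. With 1 library per genotype there was no replicate error and no test, and the genotype, the mouse and the piece of tissue cannot be told apart.

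The sarcomere genes took 6.75% of all counts in Control (1095409 counts), 3.64% in ScxHt (572460 counts) and 11.3% in Dicer cKO (1689898 counts). Dicer cKO was the highest of the 3 libraries and ScxHt the lowest. Ttn alone, which encodes titin and is the longest gene of the set (116814 bases counted), made up 4.25%, 2.09% and 7.11% of the 3 libraries in that order, and was the most abundant feature of the Dicer cKO library. Without Ttn the other 44 genes took 2.51%, 1.55% and 4.20%. In these bulk samples a larger amount of muscle fibre in the piece of tissue and more sarcomere RNA per fibre cannot be told apart.

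A gene was called higher where its log2 ratio was above 0.74 and lower where it was below −0.74 (a ratio of 0.60), which are the limits the study used. In Dicer cKO against Control, 17 of the 44 genes above the minimum were called higher and 0 lower. Of all 13404 features above the minimum, 3.87% were called higher and 4.19% lower. With a stricter limit, a ratio above 2, the members called higher were 6 in place of 17, beside 1.60% of all features. The members' median log2 ratio was 0.63 (a ratio of 1.55), against −0.03 over all features. A ratio above 1 was seen in 43 of the 44, or 97.7%, against 45.8% of all features, and the counting interval lay wholly above 1 in 40. The 44 genes ranged from −0.21 on the log2 scale in Nebl to 2.46 in Actc1. Their summed counts had a ratio of 1.60 (1.60 to 1.61).

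In ScxHt against Control the set lay on the other side. Of the 44 genes 27 were called lower and 4 higher, namely Actc1, Mybph, Mybpc2 and Actn3. Over all 13462 features above the minimum, 4.71% were called lower and 3.03% higher. With a ratio below 0.5 as the limit, the members called lower were 15 in place of 27, beside 2.15% of all features. The members' median log2 ratio was −0.81 (a ratio of 0.569), against 0.02 over all features, with a range from −1.79 in Myoz2 to 2.09 in Actc1. The counting interval was wholly below 1 in 34 genes and wholly above 1 in 5. The summed counts had a ratio of 0.501 (0.499 to 0.502).

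Between the 2 genotypes that carry the Cre allele the distance was widest. In Dicer cKO against ScxHt, 37 of the 44 genes were called higher and 0 lower, while 7.68% of all 13455 features were called higher and 5.68% lower. The median log2 ratio of the members was 1.51 (a ratio of 2.84), against −0.03 over all features, and the summed counts had a ratio of 3.25 (3.24 to 3.26). The range ran from −0.34 in Nebl to 2.11 in Myoz2. The 3 comparisons share their libraries, so their ratios are not independent of each other.

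Scaling by total counts in place of size factors moved the split of all calls. For Dicer cKO against Control it gave 667 features higher and 438 lower, in place of 519 and 561. For ScxHt against Control it gave 640 and 456 in place of 408 and 634, and the number of members called lower was then 18 in place of 27, beside 3.39% of all features. For Dicer cKO against ScxHt it gave 897 and 962 in place of 1033 and 764.

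**Figure D1:**
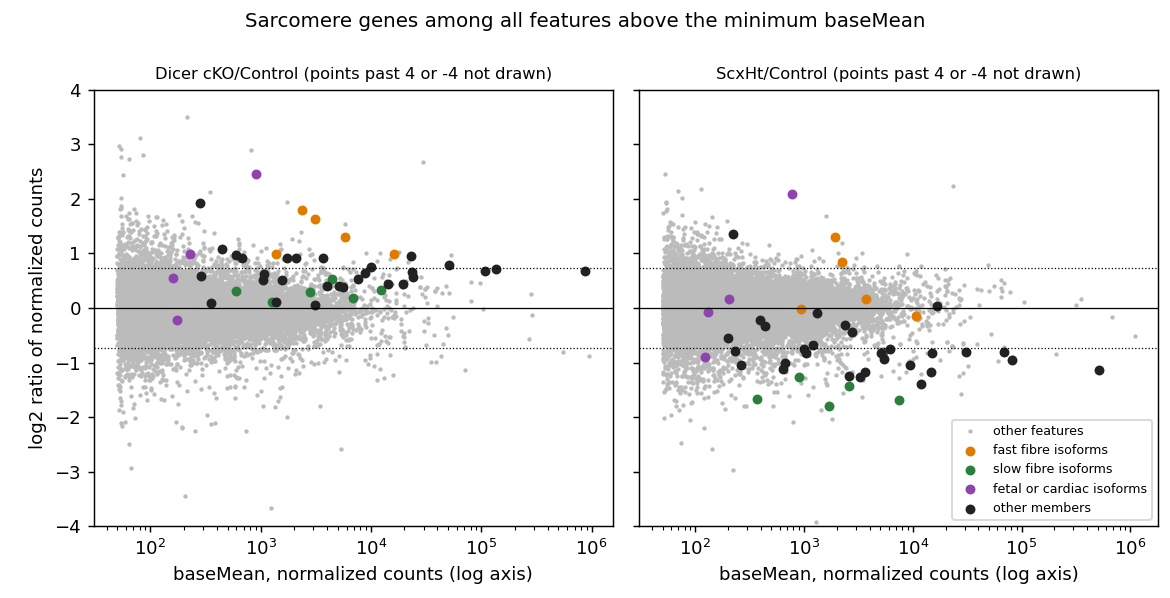
Log2 ratio against mean normalised count (log10 axis) for all features above the minimum, in grey, and for the sarcomere genes, in black or, by fibre class, in colour, for Dicer cKO/Control and ScxHt/Control, with dotted lines at the call limits; any points beyond the axis are not drawn. The sarcomere genes lie mostly above 0 in Dicer cKO/Control (median 0.63) and mostly below 0 in ScxHt/Control (median −0.81).

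By RPKM, which divides counts by gene length and by library size, 34 of the 45 genes were highest in Dicer cKO and lowest in ScxHt. Another 10 genes were highest in Dicer cKO and lowest in Control: Actc1, Tpm1, Myl4, Mylpf, Mybpc2, Mybph, Obsl1, Actn3, Myoz1 and Myoz3. By size factors, though, the ScxHt/Control ratio was below 1 in Obsl1 (0.939), Myl4 (0.951) and Myoz1 (0.988). The counting intervals of these genes, and those of Tpm1 and Myoz3, spanned 1. Nebl alone was highest in ScxHt and lowest in Dicer cKO. The summed RPKM of the set was 7626 in Control, 4791 in ScxHt and 12796 in Dicer cKO.

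**Figure D2:**
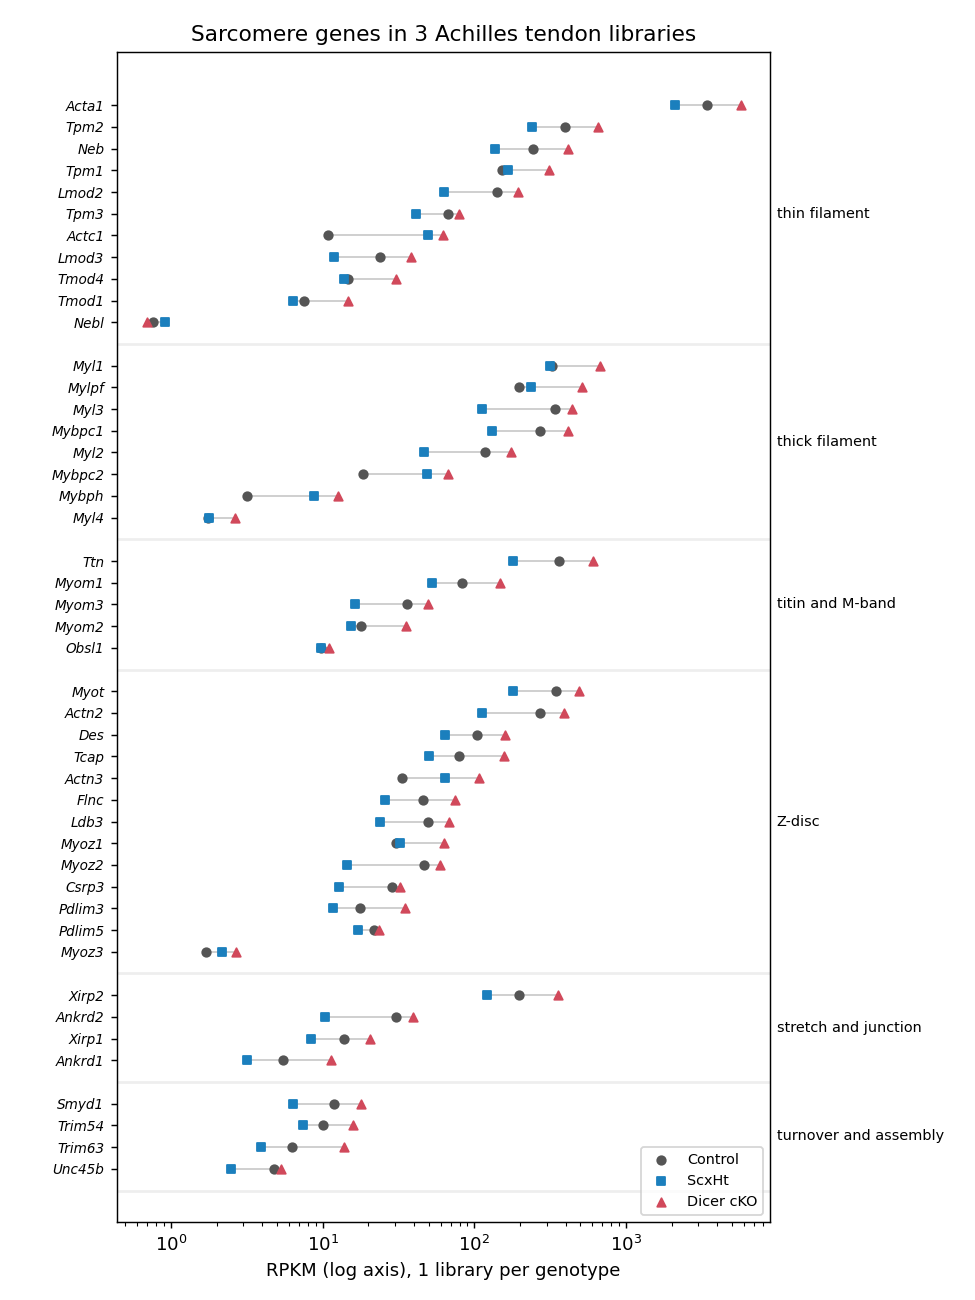
RPKM of each sarcomere gene (log10 axis) in the Control, ScxHt and Dicer cKO libraries, 1 point per library, grouped by role in the sarcomere. Acta1 has the highest level in each library, between 2110 and 5696 RPKM, and the Dicer cKO point is the rightmost for every gene but Nebl.

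The thin filament group had 11 members, and it held the gene with the highest level of the set. Acta1, the skeletal muscle alpha-actin (chr8:123891769-123894751, GRCm38, minus strand), reached 3425 RPKM in Control, 2110 in ScxHt and 5696 in Dicer cKO. These levels came from 85448, 51113 and 130878 counts, and gave a ratio of 1.59 (1.58 to 1.60) in Dicer cKO against Control and of 0.573 (0.567 to 0.579) in ScxHt against Control. Acta1 was thus just short of being called higher in Dicer cKO and was called lower in ScxHt.

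Tpm2, the beta-tropomyosin that lies along the actin filament, was next in level, at 397 RPKM in Control, 240 in ScxHt and 656 in Dicer cKO. Its 18756, 11019 and 28546 counts gave 1.58 (1.55 to 1.61) in Dicer cKO against Control and 0.563 (0.550 to 0.576) in ScxHt against Control. Acta1 and Tpm2 therefore stood in the same order over the libraries and in nearly the same proportions.

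Actc1 did not follow them. It encodes the cardiac alpha-actin, which developing and regenerating skeletal muscle also makes (chr2:114047282-114053548, minus strand). Its counts were 286 in Control, 1272 in ScxHt and 1512 in Dicer cKO, low in Control and high in both libraries with the Cre allele. The ratio was 5.49 (4.83 to 6.25) in Dicer cKO against Control, the highest of the set, 4.26 (3.74 to 4.86) in ScxHt against Control and 1.31 (1.22 to 1.41) in Dicer cKO against ScxHt. Actins are close in sequence. Of the 50-base windows of the Acta1 transcript 28 of 1534 (1.83%) also occurred in another actin gene's transcripts, and of those of Actc1 0 of 1568.

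Promoter sequence is shown for both alpha-actins, whose ratios lay apart, and for a fast and a slow myosin light chain, Mylpf and Myl3, whose levels moved apart in the same way. The windows run from 250 bases before to 50 bases after the start of the gene in the RefSeq annotation of GRCm38.p6. These starts differ from the gene bounds printed in the text, which are from GENCODE. The windows of Actc1, Mylpf and Myl3 lie inside those bounds. Capitals mark a CArG box, the site of serum response factor, or the E-box CAGCTG, a site of myogenic bHLH factors such as MyoD.
Acta1 (chr8:123894726-123895025, minus strand): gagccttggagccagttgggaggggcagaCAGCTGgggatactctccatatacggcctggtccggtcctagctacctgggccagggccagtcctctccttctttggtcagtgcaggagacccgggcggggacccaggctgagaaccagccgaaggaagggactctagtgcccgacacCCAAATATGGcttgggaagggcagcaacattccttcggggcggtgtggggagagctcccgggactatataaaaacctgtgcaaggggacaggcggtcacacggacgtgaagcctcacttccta
Actc1 (chr2:114052826-114053125, minus strand): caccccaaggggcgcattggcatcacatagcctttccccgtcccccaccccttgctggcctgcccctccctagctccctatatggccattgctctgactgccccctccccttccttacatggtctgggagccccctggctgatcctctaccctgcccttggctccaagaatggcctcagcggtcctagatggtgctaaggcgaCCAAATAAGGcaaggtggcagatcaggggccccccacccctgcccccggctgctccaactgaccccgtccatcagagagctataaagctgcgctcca
Mylpf (chr7:127211358-127211657, plus strand): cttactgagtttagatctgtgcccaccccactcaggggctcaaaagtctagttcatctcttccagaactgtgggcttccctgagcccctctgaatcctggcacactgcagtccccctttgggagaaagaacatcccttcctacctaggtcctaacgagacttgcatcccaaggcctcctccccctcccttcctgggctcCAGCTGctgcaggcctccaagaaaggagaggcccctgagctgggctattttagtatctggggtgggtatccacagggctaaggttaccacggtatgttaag
Myl3 (chr9:110763428-110763727, plus strand): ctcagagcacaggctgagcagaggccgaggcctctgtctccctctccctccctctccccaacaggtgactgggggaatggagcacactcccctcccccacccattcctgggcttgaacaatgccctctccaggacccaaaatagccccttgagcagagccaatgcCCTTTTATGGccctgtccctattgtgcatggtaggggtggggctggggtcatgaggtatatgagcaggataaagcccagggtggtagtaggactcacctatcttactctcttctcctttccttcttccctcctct

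Counted from the start, the CArG box began at −73 in Acta1, −47 in Actc1 and −85 in Myl3, and the E-box at −221 in Acta1 and −51 in Mylpf. RefSeq windows were matched for 36 of the 45 genes, with 45 windows in all since some genes have several starts. A CArG box on either strand was in 7 of these 45 windows (15.6%), belonging to Acta1, Actc1, Ldb3, Myl3, Myom1 and Nebl, and in 1.63% of all 32851 windows of that length. The E-box CAGCTG was in 16 of the 45 (35.6%), from 15 genes, and in 16.3% of all windows. The sequence is its own reverse complement and neither motif overlaps the other. A match is a string of letters and not a measured binding site. The genes called higher in Dicer cKO against Control include ones with a CArG box (Actc1) and ones without it in the window (Mylpf).

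Along with Actc1, 3 thin filament genes were called higher in Dicer cKO against Control. Tpm1, the alpha-tropomyosin, which many cell types also express in other splice forms, had 16054 counts in Control, 17078 in ScxHt and 30075 in Dicer cKO, and a ratio of 1.95 (1.91 to 1.98). Control and ScxHt were level for Tpm1, at a ratio of 1.02 (0.997 to 1.04), and only Dicer cKO stood apart. Tmod1 and Tmod4, tropomodulins that cap the slow-growing end of the thin filament, had 480 and 414 counts in Control, 397 and 373 in ScxHt, and 870 and 782 in Dicer cKO. Their Dicer cKO/Control ratios were 1.88 (1.68 to 2.11) and 1.96 (1.74 to 2.21), with ScxHt a little below Control in both.

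Nebl, which encodes nebulette, a nebulin relative best known from cardiac Z-discs, was the exception of the whole set. Nebl is also expressed outside striated muscle. It was low everywhere, with 190 counts in Control, 221 in ScxHt and 158 in Dicer cKO. Its ratio of 0.864 in Dicer cKO against Control had an interval that spanned 1 (0.695 to 1.07), and in Dicer cKO against ScxHt it was 0.788 (0.638 to 0.971). Neb itself, the nebulin that runs the length of the skeletal thin filament, had 105426, 56880 and 165807 counts and a Dicer cKO/Control ratio of 1.63 (1.62 to 1.65). The remaining members, Tpm3 and the leiomodins Lmod2 and Lmod3, which lengthen thin filaments, had ratios of 1.13 to 1.53 in Dicer cKO against Control and of 0.417 to 0.569 in ScxHt against Control. Over the 11 thin filament genes the median log2 ratio was 0.67 in Dicer cKO against Control, −0.80 in ScxHt against Control and 1.27 in Dicer cKO against ScxHt.

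Of the 8 thick filament genes, 4 were called higher in Dicer cKO against Control: the fast light chains Myl1 and Mylpf, and Mybpc2 and Mybph, which had the highest ratios of the set after Actc1. Myl1, which encodes the essential light chain (chr1:66924295-66945404, minus strand), had 10973 counts in Control, 10382 in ScxHt and 20848 in Dicer cKO. Mylpf, which encodes the regulatory light chain (chr7:127208890-127214298, plus strand), had 3423, 3986 and 8158. For both, Control and ScxHt were close and Dicer cKO was high, with Dicer cKO/Control ratios of 1.97 (1.93 to 2.02) in Myl1 and 2.47 (2.38 to 2.58) in Mylpf.

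Mybpc2 encodes the fast myosin-binding protein C, which lies in stripes along the thick filament. It had 1081 counts in Control, 2776 in ScxHt and 3620 in Dicer cKO. The ratios to Control were 3.48 (3.25 to 3.73) in Dicer cKO and 2.46 (2.29 to 2.64) in ScxHt. Mybph, a smaller relative called myosin-binding protein H, showed the same order at lower counts, with 121, 323 and 440 counts. Its ratios to Control were 3.78 (3.08 to 4.66) in Dicer cKO and 2.56 (2.07 to 3.18) in ScxHt. As for Actc1, both libraries with the Cre allele were above Control.

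The slow counterparts behaved otherwise, and they were picked for description after their values were seen. Myl3, the slow and ventricular essential light chain (chr9:110741861-110769798, plus strand), had 11251 counts in Control, 3640 in ScxHt and 13563 in Dicer cKO. Myl2, the slow and ventricular regulatory light chain, had 3696, 1433 and 5138. ScxHt was low for both, at 0.310 (0.298 to 0.322) of Control in Myl3 and 0.371 (0.349 to 0.395) in Myl2, and Dicer cKO was above Control by ratios of 1.25 (1.22 to 1.28) and 1.44 (1.38 to 1.51). Mybpc1, the slow myosin-binding protein C, had ratios of 1.47 in Dicer cKO and 0.445 in ScxHt. Myl4, an essential light chain of embryonic muscle and atria, was scarce, with 132, 131 and 185 counts and a Dicer cKO/Control ratio of 1.46 (1.16 to 1.83). The medians of the 8 genes were 0.77, −0.11 and 1.16 on the log2 scale in Dicer cKO against Control, ScxHt against Control and Dicer cKO against ScxHt.

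Titin and the M-band proteins formed a group of 5. Ttn (chr2:76703980-76982547, minus strand) had 688745 counts in Control, 329060 in ScxHt and 1062032 in Dicer cKO, which is 363, 179 and 608 RPKM. Its ratio was 1.60 (1.60 to 1.61) in Dicer cKO against Control and 0.458 (0.456 to 0.460) in ScxHt against Control. Since Ttn provided 62.9% of all sarcomere gene counts in Control and 62.8% in Dicer cKO, the ratio of the summed counts followed it closely. Without Ttn the summed ratio was 1.60 in Dicer cKO against Control, 0.573 in ScxHt against Control and 2.84 in Dicer cKO against ScxHt.

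Myom1 and Myom2, myomesins that bridge thick filaments at the M-band, were both called higher in Dicer cKO against Control. Myom1 had 7651 counts in Control, 4721 in ScxHt and 12445 in Dicer cKO, with a ratio of 1.69 whose interval of 1.64 to 1.74 crossed the limit. Myom2 had 2579, 2157 and 4669, with a ratio of 1.88 (1.79 to 1.97). Dicer cKO was the highest library for both. The third myomesin, Myom3, had a ratio of 1.31, and Obsl1, an obscurin-like cytoskeletal linker found outside muscle too, had 1.08 in Dicer cKO and 0.939 in ScxHt, the value nearest to 1 in this group. The medians of the 5 genes were 0.68, −0.76 and 1.54.

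At the Z-disc, 4 of the 12 genes above the minimum were called higher in Dicer cKO against Control. Myot, encoding myotilin, and Actn2, encoding the alpha-actinin of all fibre types, had the highest levels of the group, at 344 and 273 RPKM in Control. Myot had 12355 counts in Control, 6250 in ScxHt and 16227 in Dicer cKO, and Actn2 had 16851, 6738 and 22059. Both were lowest in ScxHt, at ratios of 0.485 (0.470 to 0.50) and 0.383 (0.372 to 0.394), and both stood at 1.36 in Dicer cKO against Control (1.33 to 1.40 and 1.33 to 1.39).

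Actn3, the alpha-actinin of fast fibres (chr19:4861216-4877909, minus strand), was instead lowest in Control. It had 1558 counts there, 2906 in ScxHt and 4617 in Dicer cKO, with ratios to Control of 1.79 (1.68 to 1.90) in ScxHt and 3.08 (2.9 to 3.26) in Dicer cKO. Myoz1, the fast myozenin, a calcineurin-binding Z-disc protein, had 933, 962 and 1778 counts and a Dicer cKO/Control ratio of 1.98 (1.83 to 2.14), with Control and ScxHt level at 0.988 (0.902 to 1.08). Its slow relative Myoz2, named here after its values were seen, had 2583, 780 and 3049 counts. Myoz2 gave the lowest ScxHt/Control ratio of the set, 0.289 (0.267 to 0.313), and the highest Dicer cKO/ScxHt ratio, 4.31 (3.98 to 4.67).

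Tcap, the telethonin that caps titin at the Z-disc, had 1220 counts in Control, 753 in ScxHt and 2220 in Dicer cKO, and a ratio of 1.89 (1.76 to 2.03). Pdlim3, an alpha-actinin-binding LIM protein, had 1469, 958 and 2680, also with a ratio of 1.89 (1.78 to 2.02). For both, Dicer cKO was high and ScxHt low. Pdlim5, a relative of broader expression, hardly differed between Control and Dicer cKO, with 3144 counts in Control, 2404 in ScxHt and 3126 in Dicer cKO and a ratio of 1.03 (0.982 to 1.09). The other Z-disc members above the minimum were Ldb3, Csrp3, Flnc and Des. They had Dicer cKO/Control ratios from 1.08 in Csrp3 to 1.56 in Flnc, the filamin of muscle, and ScxHt/Control ratios from 0.415 in Csrp3 to 0.563 in Des, the muscle intermediate filament. Myoz3 had 24, 30 and 35 counts, below the minimum. The group medians were 0.49, −0.88 and 1.55.

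**Figure D3:**
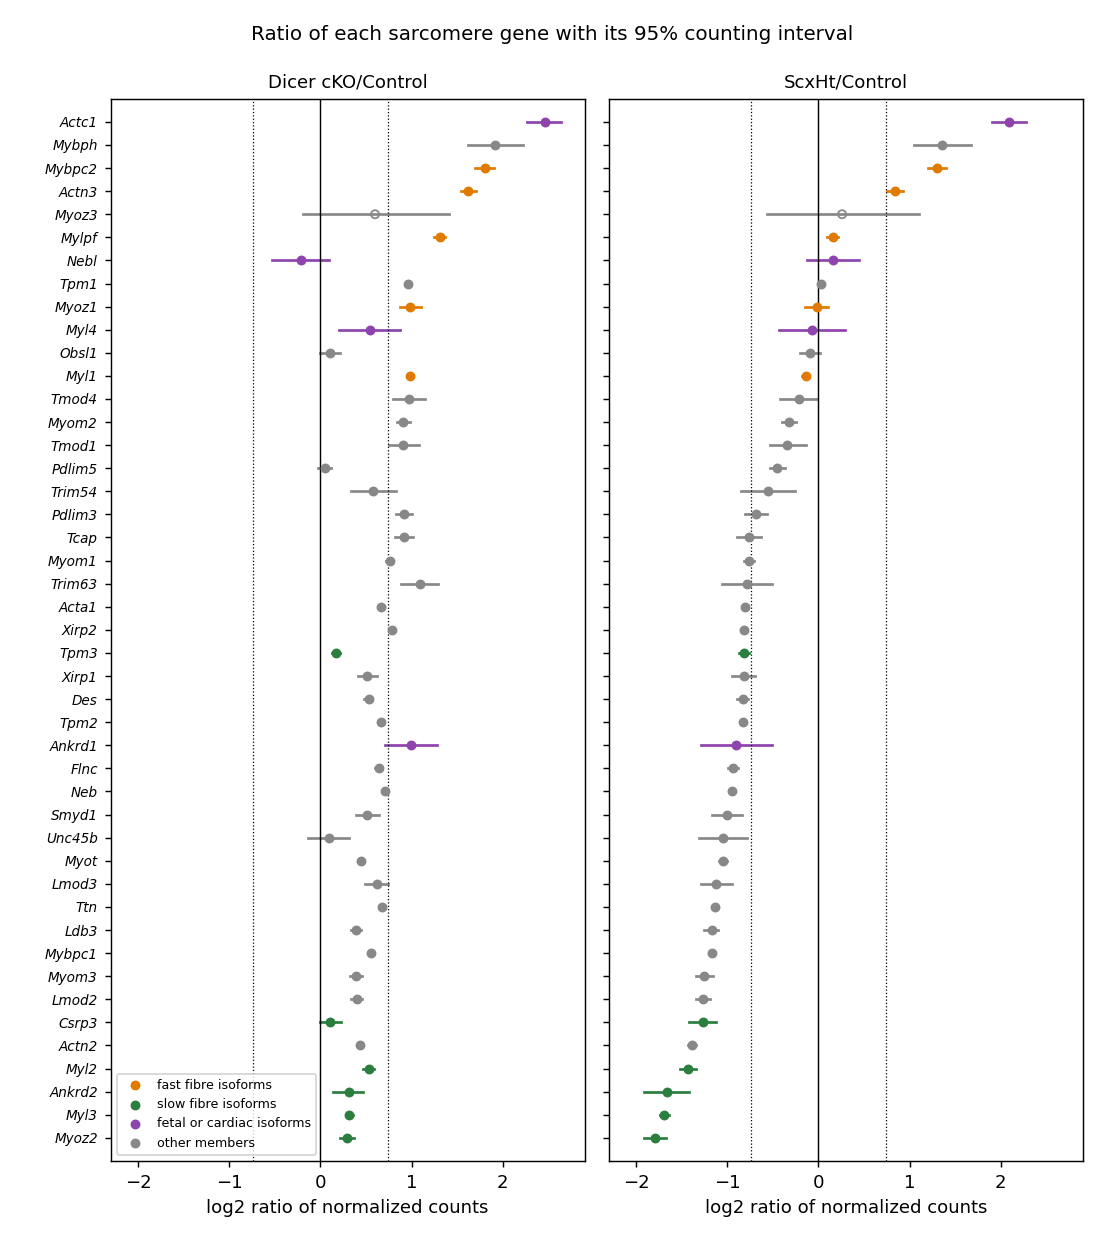
Log2 ratio of every sarcomere gene with its exact 95% counting interval in Dicer cKO/Control and ScxHt/Control, ordered by the ScxHt/Control ratio, with dotted lines at log2 ratios of −0.74 and 0.74; colours mark fibre class and the open circle marks Myoz3, below the minimum. Fast isoforms lie to the right of slow isoforms in both panels, and Actc1 has the highest ratio to Control in both (5.49 and 4.26).

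The stretch and junction group comprised 2 Xin proteins, which bind actin at myotendinous junctions and intercalated discs, and 2 muscle ankyrin repeat proteins, which bind titin and respond to stretch. Xirp2 was the most abundant, with 38375 counts in Control, 22829 in ScxHt and 63805 in Dicer cKO. Its Dicer cKO/Control ratio was 1.73 (1.70 to 1.75), and its level of 197, 121 and 356 RPKM followed the order of Ttn. Ankrd1, the cardiac ankyrin repeat protein, had 157, 88 and 300 counts and a ratio of 1.98 (1.63 to 2.42), the widest interval among the genes past the limit in this group.

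Ankrd2, found mostly in slow fibres, had 546 counts in Control, 180 in ScxHt and 650 in Dicer cKO, with ratios to Control of 0.316 (0.265 to 0.374) in ScxHt and 1.24 (1.10 to 1.39) in Dicer cKO. It followed Myl2, Myl3 and Myoz2 in being low in ScxHt by about that factor. Xirp1 had ratios of 0.567 and 1.43. All 4 genes were called lower in ScxHt against Control and higher in Dicer cKO against ScxHt. Their medians were 0.65, −0.86 and 1.77.

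Turnover and assembly proteins were the least abundant group, between 20.2 and 52.9 summed RPKM. Trim63, the ubiquitin ligase MuRF1 that rises in muscle atrophy, had 290 counts in Control, 176 in ScxHt and 593 in Dicer cKO. Its ratio of 2.12 (1.84 to 2.45) was the only one of the 4 called higher in Dicer cKO against Control. Trim54, the related MuRF3, had 235, 167 and 339 counts with a ratio of 1.5 (1.26 to 1.78), an interval that did not overlap that of Trim63.

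Smyd1, a methyltransferase, and Unc45b, a myosin chaperone, both serve thick filament assembly. Smyd1 had 882 counts in Control, 459 in ScxHt and 1212 in Dicer cKO, so that Dicer cKO stood at 1.43 (1.31 to 1.56) relative to Control. Unc45b had 349, 177 and 358 counts and a ratio of 1.07 (0.917 to 1.24), the third lowest of the 44. Both were low in ScxHt, at 0.498 and 0.486 of Control, and the medians of the 4 genes were 0.55, −0.89 and 1.35.

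Medians differed less between the roles than between fibre classes, which were chosen with earlier results of these data known. The 5 genes of fast fibres (Actn3, Myl1, Mylpf, Mybpc2 and Myoz1) were all called higher in Dicer cKO against Control. Their median log2 ratio was 1.31, and 3.87% of all features were called higher. The 6 genes of slow fibres (Myl2, Myl3, Myoz2, Csrp3, Ankrd2 and Tpm3) had 0 called and a median of 0.30. In ScxHt against Control the fast genes had a median of 0.16 with 0 called lower. The slow genes had −1.55 with all 6 called lower, beside 4.71% of all features. Dicer cKO against ScxHt turned this round, with a median of 1.03 in fast and 1.99 in slow genes. The 4 fetal or cardiac genes (Actc1, Myl4, Nebl and Ankrd1) had no common direction, with ScxHt/Control log2 ratios from −0.90 in Ankrd1 to 2.09 in Actc1. The 11 genes also expressed outside striated muscle, such as Flnc and Tpm1, had medians of 0.64, −0.68 and 1.27 in Dicer cKO against Control, ScxHt against Control and Dicer cKO against ScxHt. The 21 genes above the minimum that belong to none of these classes had medians of 0.62, −0.95 and 1.59. Mybpc1, described above as the slow form, was among these 21 and not in the slow class. Tpm1, paired below with the slow Tpm3, was not in the fast class.

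Summed RPKM gave the balance within each library without any scaling between libraries. Fast genes had 606 RPKM and slow genes 629 in Control, a fast to slow ratio of 0.964. In ScxHt the sums were 700 and 238, a ratio of 2.94. In Dicer cKO they were 1422 and 831, a ratio of 1.71. The slow sums leave out Mybpc1, which had 271 RPKM in Control, 130 in ScxHt and 417 in Dicer cKO. With Mybpc1 counted as slow, each of these ratios would be lower, so the balance depends on the list.

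Paired isoforms showed the same balance gene by gene, with pairs that were put together after the values were seen. They reuse the fast genes and several slow genes of those sums, so the pairs are no separate evidence. The partners Actn2 and Mybpc1 were not in the slow sum. The RPKM of Mylpf was 1.70 times that of Myl2 in Control (1.62 to 1.78), 5.11 times in ScxHt (4.81 to 5.43) and 2.92 times in Dicer cKO (2.82 to 3.02). Myl1 over Myl3 was 0.961, 2.81 and 1.51. The fast light chains were thus about level with or above the slow ones in Control and exceeded them in the other libraries.

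For the other pairs the fast gene was the scarcer in Control. Mybpc2 over Mybpc1 was 0.0680 in Control, 0.376 in ScxHt and 0.161 in Dicer cKO. Actn3 over Actn2 was 0.121, 0.566 and 0.274, and Myoz1 over Myoz2 was 0.653, 2.23 and 1.06. In each of these 5 pairs ScxHt had the highest share of the fast gene, Dicer cKO the next and Control the lowest, and the counting intervals of the 3 libraries did not overlap. The ratio of each pair was 1.58 to 2.36 times higher in Dicer cKO than in Control and 2.92 to 5.52 times higher in ScxHt than in Control. Actc1 over Acta1 followed that order too, at 0.00318, 0.0236 and 0.0110, although neither is a fast or slow form. With 1 mouse per genotype a difference in the calf muscle sampled, or in its region, cannot be told apart from the genotype.

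**Figure D4:**
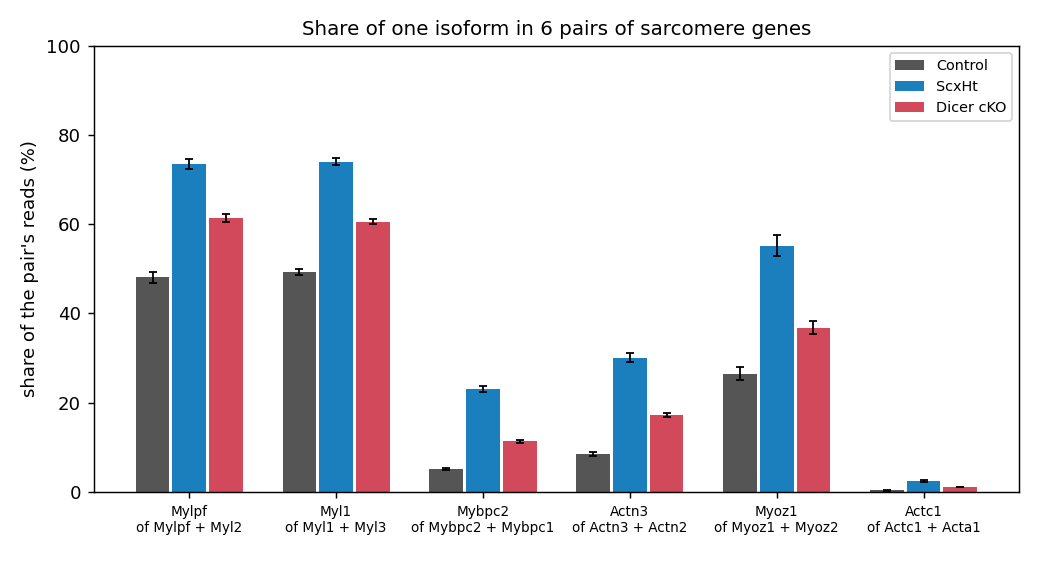
Share of the first gene in the summed counts of each isoform pair (percent, with exact 95% counting intervals) in the Control, ScxHt and Dicer cKO libraries. ScxHt is highest and Control lowest in each of the 6 pairs, for example 73.6% and 48.1% for Mylpf with Myl2, with Dicer cKO between them at 61.4%.

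For 3 further pairs the RPKM ratios were as follows. Tpm1 over Tpm3, where Tpm3 is the slow form, was 2.27 in Control, 4.07 in ScxHt and 3.91 in Dicer cKO, which is 1.72 times higher in Dicer cKO than in Control and 1.79 times higher in ScxHt. Neb over Ttn, in RPKM, was 0.673 (0.668 to 0.677) in Control, 0.760 (0.753 to 0.766) in ScxHt and 0.686 (0.683 to 0.690) in Dicer cKO. The embryonic Myl4 over the adult Myl1 was 0.00538, 0.00564 and 0.00396.

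Sarcomere genes that were not members lay in the same directions. Of 23 such genes, among them the myosin heavy chains and troponins, 9 were called higher in Dicer cKO against Control (median log2 ratio 0.61), 18 were called lower and 1, Myh4, higher in ScxHt against Control (median −1.06), and 22 were called higher in Dicer cKO against ScxHt (median 1.65). The 3 with the highest mean normalised counts in Dicer cKO and Control, a ranking that favours long transcripts, were Myh2, Myh1 and Myh7, the IIa, IIx and slow heavy chains, with Dicer cKO/Control ratios of 1.95, 1.32 and 1.21 and ScxHt/Control ratios of 0.419, 0.480 and 0.334. Myh4, the IIb heavy chain of the fastest fibres, named after its values were seen, had 8125 counts in Control, 39836 in ScxHt and 49811 in Dicer cKO, and held more counts than any other of the 23 genes in ScxHt.

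Muscle fibre genes outside the sarcomere moved with the set. All 17 listed genes, which serve calcium handling, energy supply and oxygen storage, were detected, and their summed share was 0.492% of the counts in Control, 0.363% in ScxHt and 0.878% in Dicer cKO. In Dicer cKO against Control 17 of 17 ratios were above 1 and 8 were called higher, with a median log2 ratio of 0.73. In ScxHt against Control 7 were called lower and 1 higher (median −0.51). The ratios there ran from 0.412 in Mb to 3.22 in Pvalb, the gene called higher, which was named after its values were seen. In Dicer cKO against ScxHt 16 were called higher (median 1.26). The 3 with the highest mean normalised counts in Dicer cKO and Control, not corrected for length, were Atp2a1, the calcium pump of fast fibres, Ryr1, the calcium release channel, and Mb, the myoglobin of oxidative fibres. Their Dicer cKO/Control ratios were 1.79, 1.65 and 1.47 and their ScxHt/Control ratios 0.761, 0.525 and 0.412. The part of muscle content in the sarcomere gene differences was not tested.

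Tendon fibroblast markers moved the other way in Dicer cKO. All 12 had Dicer cKO/Control ratios below 1, with 6 called lower and a median log2 ratio of −0.75. In ScxHt against Control 0 of the 12 were called and the median was 0.27, beside the sarcomere genes' −0.81. The markers were split there, with the counting interval wholly above 1 in 8 and wholly below 1 in 4. Their summed counts, mostly of Col1a1 and Col1a2, had a ratio of 0.814 (0.812 to 0.815). In Dicer cKO against ScxHt 6 were called lower (median −0.68). Their part in the shares of the library was not tested.

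Other contractile or myogenic cells were represented less. The 10 smooth muscle markers took 0.109%, 0.0942% and 0.135% of the counts in Control, ScxHt and Dicer cKO, and their medians had the signs of those of the sarcomere genes. The median log2 ratio was 0.46 in Dicer cKO against Control (2 of 7 genes above the minimum called higher). It was −0.27 in ScxHt against Control (1 of 6, Synpo2, called lower) and 0.93 in Dicer cKO against ScxHt (5 of 8 called higher). The list was mixed, with ratios above 1 in 5 of the 7 genes in Dicer cKO against Control and in 2 of the 6 in ScxHt against Control. Synpo2 alone had 4971 counts in Control, 2723 in ScxHt and 6580 in Dicer cKO, of the list's 17722, 14837 and 20135. The change in the list's share therefore rested largely on that gene. The part of smooth muscle in the differences was not tested. Of 8 cardiac markers, Myl7, Nppa and Nppb had 0 counts in every library, which allows up to 3 counts, or 2.01e-05% of the smallest library, and Mybpc3 had at most 1. Myh6 held most of that list's counts, with 3337 in Control, 1181 in ScxHt and 3777 in Dicer cKO. Its ratios to Control, 0.339 in ScxHt and 1.18 in Dicer cKO, were close to those of Myh7 (0.334 and 1.21). Sequence shared between Myh6 and Myh7 was not checked. Of 9 satellite cell and myoblast markers, 7 were matched by symbol, and they summed to 148, 85 and 252 counts. Cdh15 had 70, 34 and 82 of these, Chrna1 29, 15 and 51, and Pax7, which marks satellite cells, 14, 11 and 51.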

How the data were processed

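RNA-seq of Achilles tendon was analysed from 3 libraries, 1 each of Control, ScxHt and Dicer cKO. Per the labels and the study's methods, paired-end reads were aligned to GRCm38 (mm10) and assigned to genes. The submitters' processing notes name TopHat, Bowtie2, HTSeq and DESeq2. Their versions, the annotation release and the strand setting are not given in the sources used here. The deposited values are raw gene counts, and the authors also deposited RPKM per gene, a value per gene length and library total. In 692 features of Control, 763 of ScxHt and 605 of Dicer cKO the deposited RPKM was above 0 at a count of 0, so not every RPKM comes from the deposited count. For the members, the lengths that counts and RPKM imply agreed between libraries within 0.271%. RPKM was used for levels, for the order of the libraries and for ratios between genes of 1 library, and counts for all ratios between libraries.

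Of 54189 lines, 463 repeats were dropped. Counts were divided by DESeq2 size factors of the 2 libraries compared. Following the study, features needed a mean normalised count above 50, and ratios above 1.67 or below 0.60 were called. Exact Clopper-Pearson 95% intervals cover counting error only. With 1 library per genotype no test was run. Scripts were tested on simulated data. Python 3.11.15, numpy 2.4.6, pandas 2.3.3 and scipy 1.17.1 were used. Gene positions are from GENCODE vM21, and promoter windows from RefSeq.

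The members, the gene lists and the fibre classes were chosen with earlier results of these data known. Counts in every library are given for the 2 members of highest mean RPKM in each role, for those past a limit in the same direction in Dicer cKO against both other libraries, and for the 3 members at the top and the 3 at the bottom of the Dicer cKO/Control order. Genes named after their values were seen are marked as such or given to complete a pair or group. Alternatives were other scalings, minimum counts and ratio limits, and leaving out Ttn. The small RNA libraries were not used here.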

Additional observations from a re-analysis of the deposited data

How the results depend on the processing

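No paired analysis was possible because each genotype had only 1 library. No direction of a set value changed under the alternatives run, among them TMM factors, total counts, size factors from all 3 libraries together, total counts without features above 1% of a library, other minimum counts, ratio limits of 2 and 0.5, and leaving out Ttn (chosen after seeing the data). With limits of 2 and 0.5, the genes called higher in Dicer cKO against Control were 6 in place of 17, beside 1.60% of all features. Those called lower in ScxHt against Control were 15 in place of 27, beside 2.15% of all features. The log2 ratio of the summed counts in Dicer cKO against Control, 0.68, became 0.70 with TMM, 0.74 with total counts, 0.69 with size factors from all 3 libraries and 0.71 with total counts without the large features. In ScxHt against Control it was −1.0, and became −1.01 with TMM, −0.89 with total counts, −1.01 with all 3 libraries, −0.98 without the large features and −0.80 without Ttn. In Dicer cKO against ScxHt it was 1.70, and became 1.72, 1.64 and 1.68 with TMM, total counts and total counts without the large features, and 1.51 without Ttn. The median log2 ratio in ScxHt against Control, −0.81, became −0.71 with total counts, which also moved the median of all features to 0.12 there and to −0.10 in Dicer cKO against ScxHt. Of the set values, 116 stayed within their counting interval or 1.5 times their count and 16 moved beyond it. The 116 include the 0 members called lower in Dicer cKO against Control and against ScxHt, which stayed at 0. They also include the fall under total counts in the members called lower in ScxHt against Control. Depth limited Myoz3, Myl4, Nebl, Mybph, Ankrd1 and Trim54, whose log2 intervals in Dicer cKO against Control were the widest of the set. With 1 mouse per genotype, the spread between mice is unknown.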
